A study of Mus musculus with 3 samples.

Results

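Peaks of Notch2 occupancy around 5 genes of the committing nephron and the renal vesicle, Wnt4, Fgf8, Pax8, Lhx1 and Pou3f3, were described in intact kidneys of mouse embryos at stage E16.5. A peak belonged to a gene when any base of it lay within 100 kb of the gene's position on the mm9 build. These positions were 136.835 Mb on chromosome 4 for Wnt4, 45.815 Mb on chromosome 19 for Fgf8, 24.276 to 24.331 Mb on chromosome 2 for Pax8, 84.335 Mb on chromosome 11 for Lhx1 and 42.753 Mb on chromosome 1 for Pou3f3. The positions are given to the nearest kb, so that distances from a gene carry this uncertainty. The 5 windows held 21 of the 28651 peaks of replicate 1 and 15 of the 12585 peaks of replicate 2, and the 200 kb windows were widened to 255 kb for Pax8, whose position is an interval. The genes were chosen by name and not by their peaks, although earlier results of these data were known.

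The study used ChIP-seq, chromatin immunoprecipitation followed by sequencing, in which crosslinked chromatin fragments bound by an antibody are sequenced and regions with an excess of fragments are listed as peaks. Kidneys had been crosslinked with paraformaldehyde and precipitated with an anti-Notch2 antibody in 2 replicate samples, and 1 input sample accompanied them without a peak list. All samples were embryonic kidney of the same stage, and no genotype, strain or treatment is given in the sources used here. Nothing says either that the replicates were separate animals or cultures of tissue, so that their differences can be technical. The lists hold positions alone, with no height, score or read number, and depth is therefore unknown. In whole kidney, occupancy in few cells and weak occupancy in many cells cannot be told apart, and a list of peaks holds no marker level with which to check the tissue label.

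Nephrons form when mesenchymal progenitors at the tips of the ureteric bud commit, aggregate and turn into an epithelial renal vesicle, which then lengthens into the comma- and S-shaped bodies. Wnt4 and Fgf8 are secreted signals needed for this transition, Pax8 and Lhx1 are transcription factors of the aggregate and the vesicle, and Pou3f3 (Brn1) is a transcription factor of the later distal tubule and the loop of Henle. Notch2 is a receptor whose cleaved intracellular part enters the nucleus and acts on genes through the DNA-binding protein RBPJ. Notch signalling in the forming kidney is known for its part in proximal nephron fates.

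RBPJ recognises sequences with the core TGGGAA, and the promoters of the genes were searched for it on both strands. Promoters were taken from RefSeq on the GRCm38.p6 build, from 250 bases before to 50 bases after the transcription start, and 4 of the 5 symbols matched, all but Fgf8. The core occurred 1 time in the Pou3f3 promoter, beginning 45 bases before the start, and in none of the promoters of Wnt4, Pax8 and Lhx1. Of 32851 promoters in the same table, 25.6% held the core and 6.38% its extended form GTGGGAA, which contains the core and which none of the 4 promoters held. The Pax8 promoter is shown because a listed peak began 0.299 kb from the interval end that would be the gene's start (described with Pax8). This holds if mm9 has the orientation of GRCm38. That peak was in replicate 1 alone, at 99.5% of the list. With positions given to the nearest kb, it need not cover the bases shown. The Pou3f3 promoter is shown because it held the core. Both are written 5′ to 3′ in the direction of transcription, Pax8 from the minus strand of chromosome 2 and Pou3f3 from the plus strand of chromosome 1, with the core in capitals.
Pax8: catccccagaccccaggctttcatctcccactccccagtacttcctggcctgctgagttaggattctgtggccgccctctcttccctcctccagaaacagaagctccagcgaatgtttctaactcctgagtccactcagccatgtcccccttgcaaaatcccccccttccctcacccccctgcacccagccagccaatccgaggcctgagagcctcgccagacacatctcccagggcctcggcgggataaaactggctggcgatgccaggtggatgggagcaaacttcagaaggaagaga
Pou3f3: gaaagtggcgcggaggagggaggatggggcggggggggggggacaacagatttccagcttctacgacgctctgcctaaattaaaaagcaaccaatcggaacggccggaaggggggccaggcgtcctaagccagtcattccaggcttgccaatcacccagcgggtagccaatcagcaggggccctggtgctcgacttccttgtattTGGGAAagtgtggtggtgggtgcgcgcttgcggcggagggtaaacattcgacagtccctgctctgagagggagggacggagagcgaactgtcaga
The absence of capitals from the Pax8 sequence says only that these letters do not occur in this window. The sequences under the peaks themselves were not analysed here, since no mm9 sequence was used.

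Peaks were unevenly divided among the 5 genes. Pax8 had 9 peaks in replicate 1 and 8 in replicate 2, Wnt4 had 5 and 2, Pou3f3 had 4 and 2, Fgf8 had 2 and 2, and Lhx1 had 1 and 1. A peak was called shared when it overlapped a peak of the other list by at least 1 bp, and 9 pairs of shared peaks were found. Of these, 6 were at Pax8, 2 at Wnt4 and 1 at Pou3f3. At Lhx1 and Fgf8 both lists held peaks, but none coincided. Over the whole lists 33.0% of replicate 1 peaks and 75.5% of replicate 2 peaks were shared, and of all 200 kb windows of the genome 37.4% held a shared replicate 2 peak. The map of the peaks around the gene positions shows this division.

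**Figure D1:**
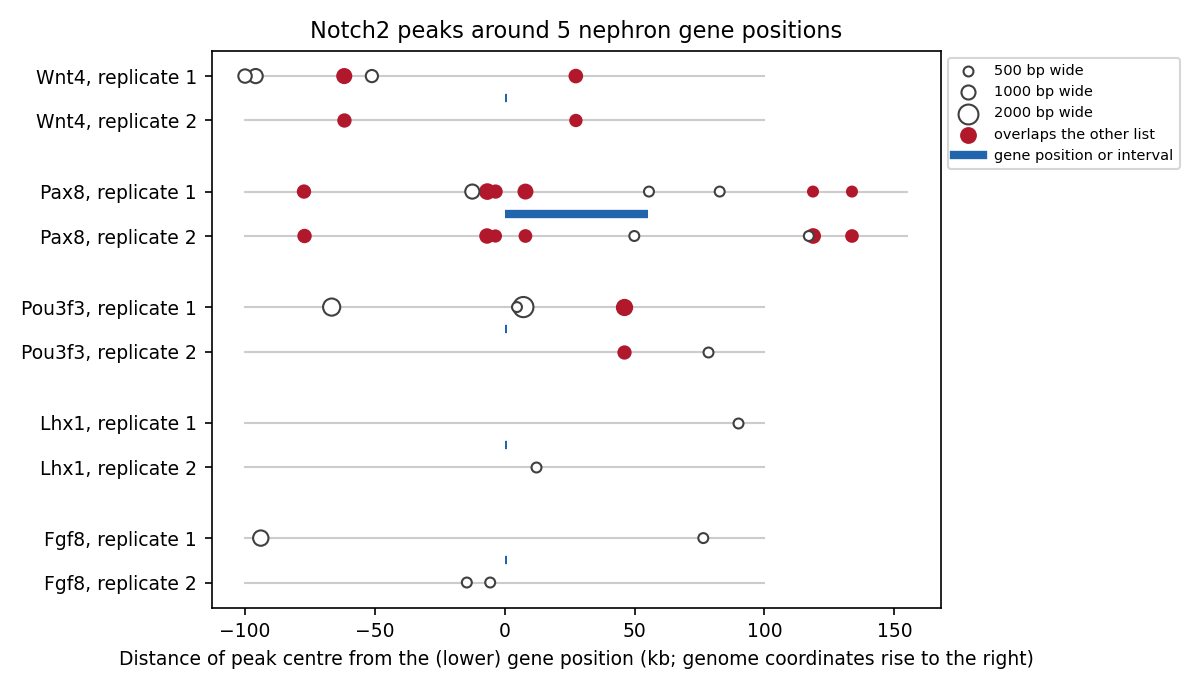
Centres of all listed Notch2 peaks by distance in kb from the gene position (for Pax8 from the lower end of its interval, drawn in blue), with 1 line for each gene and replicate. Circle area follows peak width and red circles overlap a peak of the other list. The 6 pairs at Pax8 stand above each other in both replicates, whereas no circle at Lhx1 or Fgf8 has a counterpart.

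Wnt4, the secreted signal that drives the mesenchyme to become epithelium, had a pair of shared sites on opposite sides of its position. The site with the earlier places in the lists lay 61.7 kb below it, at chr4:136772783-136773778 in replicate 1 (996 bp) and chr4:136772975-136773736 in replicate 2 (762 bp). It stood at place 1456 of the replicate 1 list and place 1566 of the replicate 2 list, that is, within the first 5.08% and 12.4%. The order of the lists is not described in the sources used here. The second site lay 27.4 kb above the position, at chr4:136862002-136862797 in replicate 1 (796 bp, place 7518) and chr4:136862108-136862748 in replicate 2 (641 bp, place 10840). It was also the peak nearest to Wnt4 in either list, and in replicate 2 it stood late, at 86.1% of the list. RefSeq has Wnt4 on the plus strand of GRCm38 between Zbtb40 and Cdc42, so that, with the same orientation in mm9, the lower site would be upstream and the upper site downstream of the gene's start. Replicate 1 had 3 further peaks at Wnt4, all on the lower side. That with the earliest place, chr4:136734647-136735559 (913 bp, place 7985), crossed the outer border of the window. The widest of all at this gene, chr4:136738673-136739692, measured 1020 bp and stood at place 15611. The remaining peak, 51.1 kb below the position, lay 9.80 kb from the nearest replicate 2 peak, and the other two lay 37.4 and 33.3 kb from one. Both replicate 2 peaks at Wnt4 were therefore found again in replicate 1, and 2 of the 5 replicate 1 peaks were found in replicate 2.

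Fgf8, a fibroblast growth factor made by the forming vesicle and needed for nephron formation, had peaks in both lists at different sites. Replicate 2 had a pair of 500 bp peaks on the lower side close to the gene position. The nearer, chr19:45809200-45809699, was centred 5.55 kb below it and stood at place 11053, and the other, chr19:45800205-45800704, was centred 14.5 kb below it and stood at place 12242. Both were in the last part of the list, at 87.8% and 97.3%. Replicate 1 had no peak within 76.2 kb of Fgf8. Its peaks were chr19:45720568-45721760, 93.8 kb below the position (1193 bp, place 5233), and chr19:45891209-45891708, 76.5 kb above it (500 bp, place 25083). The closest approach of the lists at this gene was 16.9 kb, from the lower replicate 1 peak to a replicate 2 peak outside the window. That peak was part of the nearest shared site, chr19:45703149-45703773 in replicate 1 and chr19:45703176-45703675 in replicate 2, with edges 111 kb from Fgf8 and so just outside the limit of 100 kb. In the GRCm38 gene order Fbxw4 and Npm3 flank Fgf8, so peaks of this window could belong to other genes. The same limit holds for the windows of Wnt4, Pax8, Lhx1 and Pou3f3, whose flanking genes are named with them.

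Pax8, a paired-box transcription factor that works together with Pax2 in early nephron cells, had more than 50% of all peaks of the 5 genes in replicate 2, with 8 of 15, and 9 of 21 in replicate 1. RefSeq has the gene on the minus strand of GRCm38, with Psd4 on its lower and Cacna1b on its upper side among protein-coding genes. With the same orientation in mm9, the upper end of the interval, at 24.331 Mb, would be the start of the gene and the lower end, at 24.276 Mb, its 3′ end. A group of 3 shared sites surrounded the lower end. The outermost, centred 6.66 kb below it, was chr2:24268802-24269878 in replicate 1 (1077 bp, place 2670) and chr2:24268762-24269671 in replicate 2 (910 bp, place 1504). The next, chr2:24272143-24272896 in replicate 1 (754 bp, place 6381) and chr2:24272143-24272769 in replicate 2 (627 bp, place 3720), was centred 3.48 kb below the end and began at the same base in both lists. The innermost site lay within the interval, 8.02 kb above its lower end, at chr2:24283530-24284504 in replicate 1 (975 bp, place 3472) and chr2:24283667-24284352 in replicate 2 (686 bp, place 2299). It was the only shared site within a gene interval, but the other 4 genes were given as points.

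On the upper side of Pax8 a further pair of sites was shared. That with the earliest places was chr2:24394423-24394922 in replicate 1 (500 bp, place 1636) and chr2:24394264-24395200 in replicate 2 (937 bp, place 631), 63.7 kb above the upper end. It was the widest replicate 2 peak of all 5 genes and stood in the first 5.71% and 5.01% of the lists. Its replicate 1 peak had the smallest width in that list, 500 bp, in spite of its early place. The other, chr2:24409422-24409921 in replicate 1 (500 bp, place 14678) and chr2:24409341-24410020 in replicate 2 (680 bp, place 3640), lay 78.7 kb above the upper end. The sixth shared site, on the lower side 77.2 kb from the interval, was chr2:24198405-24199165 in replicate 1 (761 bp, place 17521) and chr2:24198617-24199384 in replicate 2 (768 bp, place 7164). Its place was later than that of the other 5 sites in both lists, at 61.2% and 56.9%.

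The peaks of Pax8 found in a single list, 3 in replicate 1 and 2 in replicate 2, measured 500 bp with 1 exception. The peak nearest to the upper end of the interval was chr2:24331300-24331799, a 500 bp peak of replicate 1 that began 0.299 kb above it. It stood at place 28516, in the last part of the list at 99.5%, and the nearest replicate 2 peak, chr2:24325655-24326154 (500 bp, place 9179), lay 5.15 kb away within the interval. The unshared replicate 1 peak with the earliest place, chr2:24263062-24264075 (1014 bp, place 14855), lay 4.69 kb from a replicate 2 peak. The unshared replicate 2 peak with the earliest place, chr2:24392817-24393316 (500 bp, place 8904), lay 1.11 kb from the replicate 1 peak of the shared site above the gene. The ninth replicate 1 peak, 27.8 kb above the upper end, measured 500 bp and lay 32.4 kb from any replicate 2 peak.

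Lhx1, a LIM-homeobox transcription factor of the renal vesicle, had the fewest peaks. Replicate 1 had chr11:84424480-84424979, 89.7 kb above the position (place 15531), and replicate 2 had chr11:84346697-84347196, 11.9 kb above it (place 7706). Both measured 500 bp, and the other list had no peak within 21.5 kb of the first or 77.3 kb of the second. No peak of either list lay on the lower side within the window. There the nearest were 579 kb away in replicate 1 and 607 kb away in replicate 2. The nearest shared site was just outside the window on the upper side, at chr11:84446725-84447352 in replicate 1 (628 bp, place 7432) and chr11:84446508-84447290 in replicate 2 (783 bp, place 3624), 112 kb from Lhx1. RefSeq has Lhx1 on the minus strand of GRCm38 between Aatf and Mrm1, so that the upper side would be upstream of its start if mm9 has the same orientation.

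Pou3f3, a POU-domain transcription factor, had the shared site with the earliest place by the sum of both lists. It was chr1:42798356-42799524 in replicate 1 (1169 bp, place 600) and chr1:42798721-42799474 in replicate 2 (754 bp, place 645), and it lay 45.9 kb above the gene position. This was the first 2.09% of the replicate 1 list and the first 5.13% of the replicate 2 list. The widest peak of the 5 genes was also at Pou3f3 but was unshared. It was a replicate 1 peak, chr1:42759182-42761242, centred 7.21 kb above the position, with 2061 bp and place 4678, and 1.09% of the replicate 1 list was as wide or wider. The nearest replicate 2 peak lay 37.5 kb from it. Beside it, chr1:42757506-42758005 was the peak nearest to the gene position, centred 4.75 kb above it, and with 500 bp and place 28118 it stood near the end of the list. The unshared replicate 1 peak with the earliest place, chr1:42685695-42687186 (1492 bp, place 3371), was 66.6 kb below the position and 88.1 kb from any replicate 2 peak. The second replicate 2 peak, chr1:42831019-42831518 (500 bp, place 5104), was 78.3 kb above the position and had no replicate 1 peak within 31.5 kb. With RefSeq's plus strand, the shared site and the wide peak would be downstream of the start of Pou3f3, whose flanking protein-coding genes in GRCm38 are Tmem182 and Mrps9.

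Agreement between the replicates over the 5 genes was set beside the whole lists. Of the 21 replicate 1 peaks, 9 were shared, or 42.9% (95% Wilson interval 24.5 to 63.5%, counting error only), against 33.0% of all replicate 1 peaks. Of the 15 replicate 2 peaks, 9 were shared, or 60.0% (35.7 to 80.2%), against 75.5% of all replicate 2 peaks. Both intervals include the share of the whole list. They treat peaks of a locus as independent, which they are not, so they are a description and no test. The shares rested in large part on Pax8, with 6 of 9 and 6 of 8 peaks shared. Without it they were 3 of 12 in replicate 1 (8.89 to 53.2%) and 3 of 7 in replicate 2 (15.8 to 75.0%). The 75.5% of the whole replicate 2 list lies just above the latter interval, and the 33.0% of the replicate 1 list lies within the former. Leaving out Pax8 was chosen after the data were seen, and no difference from the whole lists is concluded from it. Replicate 1 had 1.40 peaks for each peak of replicate 2 over the 5 genes, 1.12 at Pax8 and 1.71 at the other four, against 2.28 over the genome.

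Within the 9 pairs, centres lay 7.5 to 215.5 bp apart, with a median of 63.5 bp. The replicate 1 peak was the wider in 6 pairs and the replicate 2 peak in 3, all of the latter at Pax8. The site above Pax8 with the earliest places differed most in width, by 437 bp, and the innermost Pax8 site had the smallest offset of centres. Relative to the length of its list, the replicate 1 peak stood earlier in 6 pairs and the replicate 2 peak in 3, the same 3 Pax8 sites in which it was wider.

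Shared peaks of the 5 genes stood earlier in the lists than unshared ones. In replicate 1 the median place was 3472 for the 9 shared peaks and 15193 for the 12 unshared peaks, and in replicate 2 it was 2299 for the 9 shared and 9042 for the 6 unshared peaks. All 6 unshared replicate 2 peaks measured 500 bp and no shared replicate 2 peak did, whereas 500 bp peaks made up 47.9% of that list. In replicate 1 the widths did not separate the peaks in this way. There 2 of 9 shared and 5 of 12 unshared peaks measured 500 bp, against 31.8% of the list, and the widest peak of the 5 genes was unshared. Places and widths of shared and unshared peaks over the whole lists were not compared here. These contrasts are therefore not said to be particular to the 5 genes. The plot of place and width shows every peak.

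**Figure D2:**
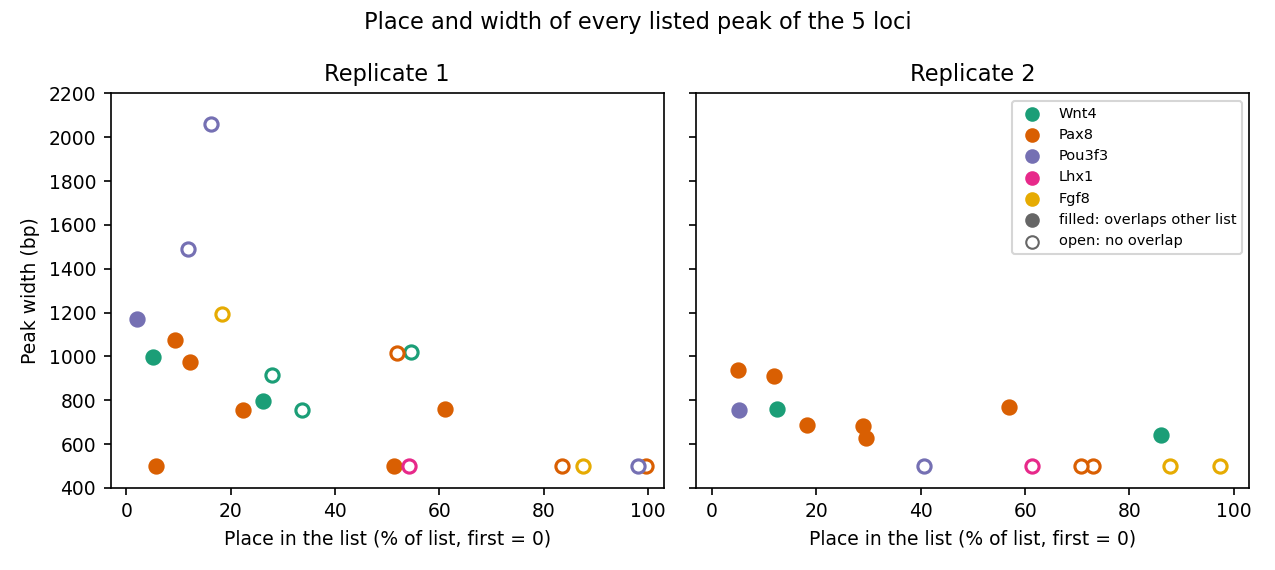
Width in bp of each listed peak of the 5 genes (vertical) by its place in the list as a percent of list length (horizontal), for replicate 1 (left, 21 peaks) and replicate 2 (right, 15 peaks). Filled points overlap a peak of the other list. All open points of replicate 2 lie at 500 bp, whereas those of replicate 1 reach 2061 bp.

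The numbers of peaks were then placed among all windows of the same length over the genome, laid end to end between the outermost peaks of each chromosome. Of 12785 windows of 200 kb, 67.1% held a replicate 1 peak, 43.9% a replicate 2 peak, 41.5% peaks of both lists and 37.4% a shared replicate 2 peak. All 4 genes with 200 kb windows thus had peaks in both lists where 41.5% of windows do, and 2 of the 4 had a shared peak. Fewer replicate 1 peaks than the 5 at Wnt4 were found in 83.5% of windows. The 4 replicate 1 peaks at Pou3f3 were reached or exceeded in 24.0% of windows and the 2 at Fgf8 in 47.8%. The 2 replicate 2 peaks at Wnt4, Fgf8 and Pou3f3 were reached in 23.3% of windows, and the 2 shared sites at Wnt4 in 17.7%. The single peaks at Lhx1 are reached wherever a window has any peak. 

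Pax8 stood further out. Its 9 replicate 1 peaks were reached in 6.41% of the 10026 windows of 255 kb, its 8 replicate 2 peaks in 1.64% and its 6 shared replicate 2 peaks in 2.39%. Windows of this length held a replicate 1 peak in 72.4%, a replicate 2 peak in 50.1%, peaks of both lists in 47.7% and a shared replicate 2 peak in 43.2%. At least as many peaks of both lists together as at Pax8 were found in 136 windows. These values describe a position in the distribution and are not tests. The windows include stretches without any peak, and a window centred on a listed peak is denser by construction. Among windows centred on each replicate 2 peak in turn, 14.5% had 8 or more, and among those centred on each replicate 1 peak 27.4% had 9 or more.

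**Figure D3:**
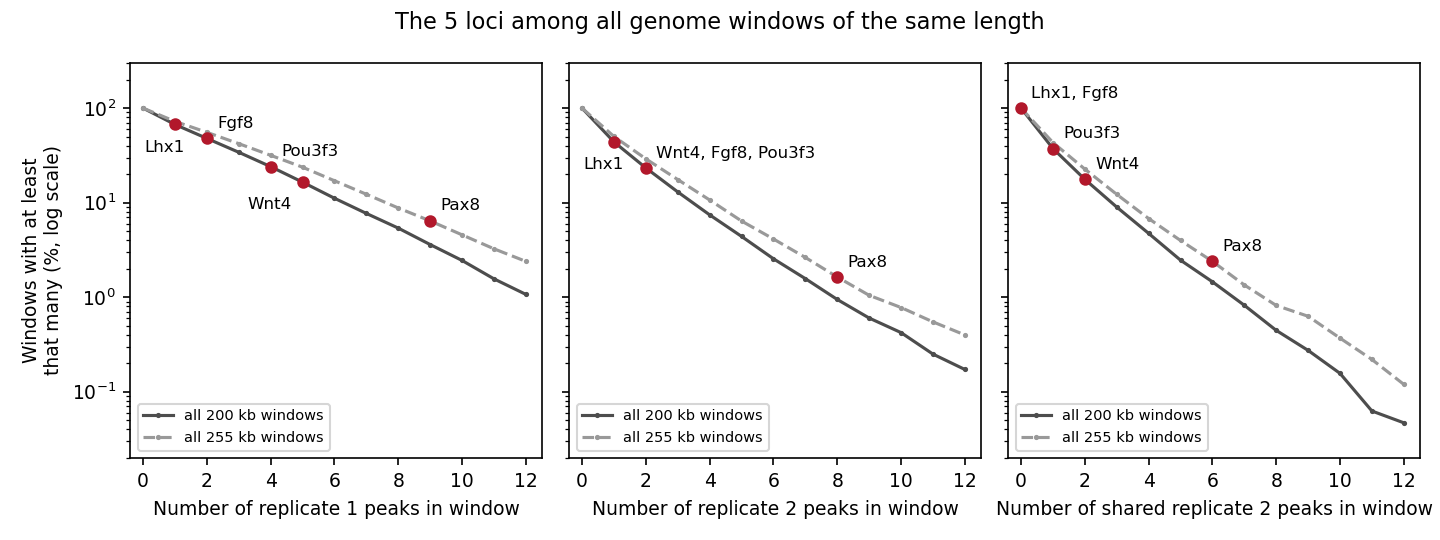
Percent of genome windows (vertical, log scale) that hold at least a given number of replicate 1 peaks, replicate 2 peaks or shared replicate 2 peaks (horizontal), for windows of 200 kb (solid line) and 255 kb (dashed line). Red points place the 5 genes on the line of their window length. Pax8 lies at 6.41%, 1.64% and 2.39%, and the other 4 genes lie higher in all panels.

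The lack of shared sites at Lhx1 and Fgf8, which were taken because they had none, was set beside windows with the same numbers of peaks. The windows were matched on number alone and not on width or place, so the values are a description and no test. Among the 754 windows with 1 peak in each list, as at Lhx1, 24.1% had no shared replicate 2 peak. Among the 309 windows with 2 peaks in each list, as at Fgf8, 3.88% had none. Of all 5301 windows with peaks in both lists, 9.87% had none. Both replicate 2 peaks at Fgf8 measured 500 bp and stood late in the list, at 87.8% and 97.3%, which the matching does not take into account. At Wnt4, 104 of the 143 windows with its numbers, 5 and 2, shared both replicate 2 peaks as it did. At Pou3f3, 188 of the 196 windows with its numbers, 4 and 2, had a shared peak.

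The distance from each gene to the nearest peak was compared with that from every kb of the genome, where the median was 49.1 kb to a replicate 1 peak, 127 kb to a replicate 2 peak and 166 kb to a shared one. The nearest shared site lay inside the Pax8 interval, 27.0 kb from Wnt4, 45.4 kb from Pou3f3, 111 kb from Fgf8 and 112 kb from Lhx1, each measured to its replicate 1 edge. Of the genome, 15.0% was as near to a shared peak as Wnt4, 22.2% as near as Pou3f3 and 40.1% as near as Fgf8. For Lhx1 the value was 40.2%. An interval of 55 kb is more easily hit than a point, so Pax8 has no matching value. In replicate 1, Pou3f3 was the gene point nearest to a peak, at 4.50 kb, with 9.62% of the genome as near. For Wnt4, Fgf8 and Lhx1 the replicate 1 values were 35.8%, 60.9% and 64.7%. In replicate 2 the nearest gene point was Fgf8, at 5.30 kb, with 4.99% as near. For Lhx1, Wnt4 and Pou3f3 the replicate 2 values were 9.65%, 18.7% and 27.2%. The nearest peaks of Pou3f3 in replicate 1 and of Fgf8 in replicate 2 were unshared and measured 500 bp.

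The peaks of Pax8 lay within the window and none followed just beyond it. Within 100 kb it was 35.3 peaks per Mb in replicate 1 and 31.4 in replicate 2, against 11.2 and 4.92 over the genome. From 100 to 200 kb neither list had a peak, and from 200 to 500 kb replicate 1 had 3 and replicate 2 none. From 500 to 1000 kb replicate 1 had 17 peaks per Mb, again above the genome, and replicate 2 had 2 per Mb, below it. The first replicate 2 peaks outside lay 1717 kb below and 652 kb above the interval, and those of replicate 1 lay 372 kb below and 460 kb above it. The other 4 genes, pooled, had 15.0 peaks per Mb within 100 kb in replicate 1 and 8.75 in replicate 2, and from 100 to 200 kb these values were 17.5 and 10.0. From 200 to 500 kb they were 15.4 and 5.83, and from 500 to 1000 kb 19.0 and 7.25. Single genes differed from the pooled values. Within 100 kb in replicate 1, Lhx1 had 5 and Fgf8 10.0 peaks per Mb, both below the genome. At 100 to 200 kb, Wnt4 in replicate 2 had 0 peaks per Mb, against 10.0 within 100 kb. Pou3f3 in replicate 1 had 15.0, against 20.0 nearer the gene. Density was equal at both distances for Wnt4 in replicate 1 (25) and for Pou3f3 in replicate 2 (10). Lhx1 and Fgf8 were denser at 100 to 200 kb in both lists. Lhx1 had 10 peaks per Mb there in replicate 1 and 15 in replicate 2, against 5 within 100 kb in each. Fgf8 had 20 and 15, against 10 in each.

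**Figure D4:**
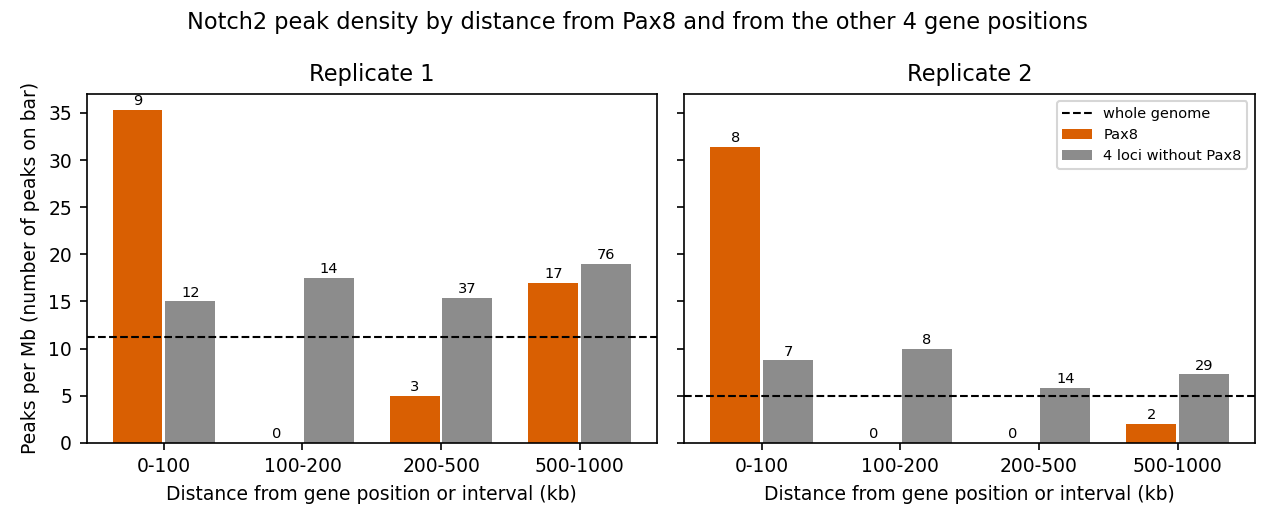
Peaks per Mb (vertical) by distance in kb from the gene position or interval (horizontal) for Pax8 (orange) and the other 4 genes together (grey), with the number of peaks on each bar and the density of the whole genome as a dashed line, in replicate 1 (left) and replicate 2 (right). Pax8 is above the genome within 100 kb and has no peak from 100 to 200 kb. From 500 to 1000 kb it is above the genome again in replicate 1 and below it in replicate 2. The pooled bars of the other 4 genes are above the genome at all 4 distances, which does not hold for each gene alone.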

How the data were processed

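Notch2 ChIP-seq peaks of 2 replicates of E16.5 mouse kidney were used, and the input had no list. The deposited files hold 3 columns per peak, its chromosome, start and end, in a list for each immunoprecipitation. Per the submitters' processing notes, Bowtie, SAMtools, HOMER and the mm9 build were used, with no version or role recorded. Peak-calling settings and any use of the input were not given in the sources used here. Starts were counted from 1. Repeated rows (242 in replicate 1 and 480 in replicate 2) were counted once, and place means order among distinct peaks.

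Members and lists were chosen with earlier results of these data known. In each locus up to 6 shared sites, the nearest and widest peaks and the unshared peak of earliest place were to be named, and the few remaining peaks were added after their values were seen. Further nephron genes, planned for the case of an mm9 annotation, were not analysed here. With 1 list per replicate no test was made, and shares have 95% Wilson intervals. In place of randomly drawn windows, all consecutive windows of the genome were enumerated. GRCm38 RefSeq tables gave promoters, strands and gene order only. Window counts and overlaps were tested on simulated data against bedtools 2.31.1 and were equal in 5 of 5 list pairs. The scripts ran under Python 3.11.15 with scipy 1.17.1, numpy 2.4.6, matplotlib 3.10.9 and pandas 2.3.3. Alternatives were tried for the window, overlap, part of the list, repeated rows and window grid.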

Additional observations from a re-analysis of the deposited data

How the results depend on the processing

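The 9 shared sites were 9 also with 50% overlap of both peaks and with peaks widened by 500 bp, and 6 with centres within 100 bp. Repeated rows and the centre rule changed no total. Within 50 kb of the genes the lists had 10 and 9 peaks with 5 replicate 2 peaks shared, and within 200 kb they had 35 and 23 with 16 shared, by construction of the window. The first 50% of each list by place left 12 and 8 peaks, with 6 replicate 2 peaks shared. The upper 50% by width left 14 and 9 peaks, with 7 replicate 2 peaks shared. Both settings leave fewer peaks by construction. Without the Pax8 locus, an alternative chosen after the data were seen, 12 and 7 peaks remained with 3 shared. Leaving out each of the other 4 genes kept all totals within 1.5 times.

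Window percentages are given in the order Wnt4, Lhx1, Pax8, Fgf8 and Pou3f3. Shifting the grid by 50% of a window moved none of the 10 beyond its Wilson interval. Among windows that hold any peak they were 23.7, 96.5, 8.58, 68.8 and 34.6% in replicate 1 and 33.5, 63.1, 2.19, 33.5 and 33.5% in replicate 2, higher because empty windows were left out. On autosomes alone they were 17.5, 69.8, 6.84, 50.3 and 25.5% and 24.6, 45.9, 1.75, 24.6 and 24.6%. Among windows centred on each peak of the same list they were 53.7, 100, 27.4, 91.8 and 66.7% and 79.9, 100, 14.5, 79.9 and 79.9%. Pax8 had the lowest percentage in each of these settings. No paired analysis was possible because only the immunoprecipitated group has lists. An overlap needs both replicates, so neither was left out. Unknown depth limits statements on peaks found in 1 list.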

Other observations

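Beyond the windows, some peak numbers of both lists are given beside the whole lists, where 75.5% of replicate 2 peaks were shared. Over the genome replicate 1 had 2.28 peaks for each peak of replicate 2. From 500 to 1000 kb around all 5 genes together, 27 of 31 replicate 2 peaks were shared. The counts for single genes are small and are not read as traits of these genes. From 500 to 1000 kb around Fgf8 replicate 1 had 34 peaks and replicate 2 had 8, and all 8 were shared. Around Wnt4 replicate 1 had 12 peaks at this distance and replicate 2 none, and from 100 to 200 kb it had 5 against none. From 200 to 500 kb around Pou3f3 the lists had 18 and 9 peaks, with 8 of the 9 shared. Around Lhx1 the 100 to 200 kb range had 2 peaks in replicate 1 and 3 in replicate 2, all shared, after a window of 100 kb without any shared peak.

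Wide and early peaks of replicate 1 without a counterpart were found at 3 places. These were the 2061 bp peak beside Pou3f3, the 1492 bp peak below it and the 1193 bp peak below Fgf8, at places 4678, 3371 and 5233 of 28651. Their distances to replicate 2 were 37.5, 88.1 and 16.9 kb. Reads of replicate 2 at these sites were not analysed here. The selection by width and place was made after the values were seen.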
